A study of Mus musculus with 4 samples.

Results

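The levels of 10 genes tied to neutrophils and to inflammatory myeloid cells were followed through 4 spatial transcriptomes of mouse tumors. The genes were chosen by symbol, and all 10 were among the 32285 genes of each count table. S100a8, S100a9, Retnlg, Csf3r and Cxcr2 formed a neutrophil set of 5, and Clec4d, Clec4e, Trem1, Il1b and Cxcl2 an inflammatory set of 5. The tumors were MC38, a colon carcinoma line that arose in C57BL/6 mice, and each was started with 500000 cells injected subcutaneously. The hosts were female and 8 to 12 weeks old. CC075F1 mice (C57BL/6J x CC075/UncJ) and CC080F1 mice (C57BL/6J x CC080/TauUncJ) gave 2 sections each, which the labels call biological replicates. The study classed CC075F1 as a responder strain and CC080F1 as a nonresponder strain to anti-PD-1. None of these tumors received that antibody: all were taken 48 h after 1 dose of 200 µg of isotype control (2A3), given at 75 to 110 mm3. Both hosts had C57BL/6J as 1 parent, and each strain is 1 cross.

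Neutrophils are short-lived phagocytes that leave the blood toward CXC chemokines. S100a8 and S100a9 encode the subunits of calprotectin, an abundant neutrophil protein, and Retnlg encodes a resistin-like secreted protein. Csf3r encodes the receptor for the granulocyte growth factor G-CSF, and Cxcr2 the receptor for chemokines such as CXCL2. Clec4d and Clec4e (Mincle) encode C-type lectin receptors of myeloid cells, Trem1 a receptor that amplifies inflammatory signals, Il1b the cytokine interleukin 1 beta, and Cxcl2 a chemokine ligand of CXCR2. Monocytes and macrophages can also express the genes of the inflammatory set.

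S100a8 and S100a9 lie near each other on chromosome 3 and Clec4d and Clec4e on chromosome 6. The promoters of 4 genes are shown, because S100a8 and S100a9 were higher at the tissue edge and Clec4e and Cxcl2 in hypoxic spots. Each is the RefSeq sequence of GRCm38.p6, 300 bases around the gene start, read 5′ to 3′ on the strand of the gene. S100a8 is at chr3:90668821-90669120 (plus strand), S100a9 at chr3:90695672-90695971 (minus), Clec4e at chr6:123289822-123290121 (minus) and Cxcl2 at chr5:90903649-90903948 (plus). Capitals mark matches, on either strand, to ACGTG (the core of a hypoxia response element), TGANTCA (AP-1) or TTNNGNAA (C/EBP).
S100a8: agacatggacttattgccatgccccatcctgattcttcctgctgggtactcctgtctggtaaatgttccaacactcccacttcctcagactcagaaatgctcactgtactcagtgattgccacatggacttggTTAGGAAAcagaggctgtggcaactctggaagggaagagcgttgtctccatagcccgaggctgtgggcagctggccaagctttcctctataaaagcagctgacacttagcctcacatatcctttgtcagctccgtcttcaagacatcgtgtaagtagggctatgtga
S100a9: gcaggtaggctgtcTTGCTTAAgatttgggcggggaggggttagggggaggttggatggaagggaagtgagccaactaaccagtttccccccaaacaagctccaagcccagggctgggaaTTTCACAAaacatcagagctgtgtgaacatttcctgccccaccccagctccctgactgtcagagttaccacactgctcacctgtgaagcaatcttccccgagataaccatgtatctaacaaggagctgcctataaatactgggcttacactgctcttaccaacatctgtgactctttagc
Clec4e: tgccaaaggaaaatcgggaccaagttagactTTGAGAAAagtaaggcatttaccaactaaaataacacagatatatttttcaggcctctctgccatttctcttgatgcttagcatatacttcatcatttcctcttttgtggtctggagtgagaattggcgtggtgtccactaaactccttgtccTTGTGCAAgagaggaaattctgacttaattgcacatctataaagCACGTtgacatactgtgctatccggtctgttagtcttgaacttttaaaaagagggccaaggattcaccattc
Cxcl2: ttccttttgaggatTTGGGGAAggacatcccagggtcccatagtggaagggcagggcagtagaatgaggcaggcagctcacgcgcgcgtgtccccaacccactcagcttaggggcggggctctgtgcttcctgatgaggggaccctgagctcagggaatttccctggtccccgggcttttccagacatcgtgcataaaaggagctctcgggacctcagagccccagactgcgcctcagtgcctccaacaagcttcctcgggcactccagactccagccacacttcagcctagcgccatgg
No matches overlapped in these windows. ACGTG was found in 1 of the 10 promoters, that of Clec4e, against 19.7% of 32544 promoters of the same length. TGANTCA was in 0 of 10 against 7.79%, and TTNNGNAA in 8 of 10 against 40.7%. A match describes letters only.

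The sections held 2710 to 3276 spots under tissue, with 82594649 to 146460975 unique molecular identifiers (UMIs, one per captured RNA molecule) in all and a median of 31139 to 41740 per spot. A spot is a small region that can hold several cells. The label neutrophil was checked against genes that define the mature or granule-forming cell. Ly6g had 0, 2, 1 and 1 UMIs in CC075F1 replicates 1 and 2 and CC080F1 replicates 1 and 2, the order used for all series of 4 values here. Ngp had 0, 3, 1 and 0, Camp 1, 0, 1 and 0, and Cxcr1 1, 0, 1 and 3. These 4 genes were at or near 0 in every section. Elane had 3, 1, 0 and 1 UMIs, Mpo 1, 16, 1 and 3, and Cd177 0, 8, 2 and 5. Mmp9 had 21039, 7995, 24619 and 23236. Other granule genes were present, with 230, 590, 144 and 454 UMIs of Pglyrp1, 12 to 45 per section of Prtn3, 4 to 37 of Lcn2, 8 to 36 of Mmp8 and 9 to 13 of Ltf. The set is therefore described by its genes and not as a count of neutrophils.

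The neutrophil set was sparse. S100a8 had 72, 143, 121 and 230 UMIs, or 0.872, 0.976, 1.29 and 2.04 per 1000000 UMIs of the section (CPM). S100a9 had 32, 152, 106 and 250 UMIs, or 0.387, 1.04, 1.13 and 2.22 CPM. CC080F1 replicate 2 was the highest section for both, and both CC080F1 sections lay above both CC075F1 sections. The share of all genes that separate in this way is not given here. On this scale, library size alone, the median log2 fold change over 15572 genes, CC075F1 over CC080F1, was -0.31. Retnlg had 5, 21, 8 and 11 UMIs and Cxcr2 21, 57, 52 and 41, too few for levels within small areas. Csf3r had 383, 411, 286 and 283 UMIs, or 4.64, 2.81, 3.06 and 2.51 CPM, with the 2 strains overlapping.

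The inflammatory set was seen in more spots. Clec4d stood at 6.28, 19.2, 8.91 and 11.3 CPM and was seen in 15.4%, 49.6%, 22.4% and 28.8% of spots. Il1b stood at 6.83, 13.8, 7.01 and 5.66 CPM. CC075F1 replicate 2 was the highest section for both, and CC075F1 replicate 1 lay within or below the CC080F1 range. Clec4e ranged from 1.79 to 4.56 CPM, Trem1 from 0.994 to 3.48 and Cxcl2 from 0.823 to 3.92, with the strains overlapping for each. Spots with none of the 10 genes made up 55.7%, 22.2%, 50.3% and 43.4%, and the deepest section, CC075F1 replicate 2, had the fewest.

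**Figure D1:**
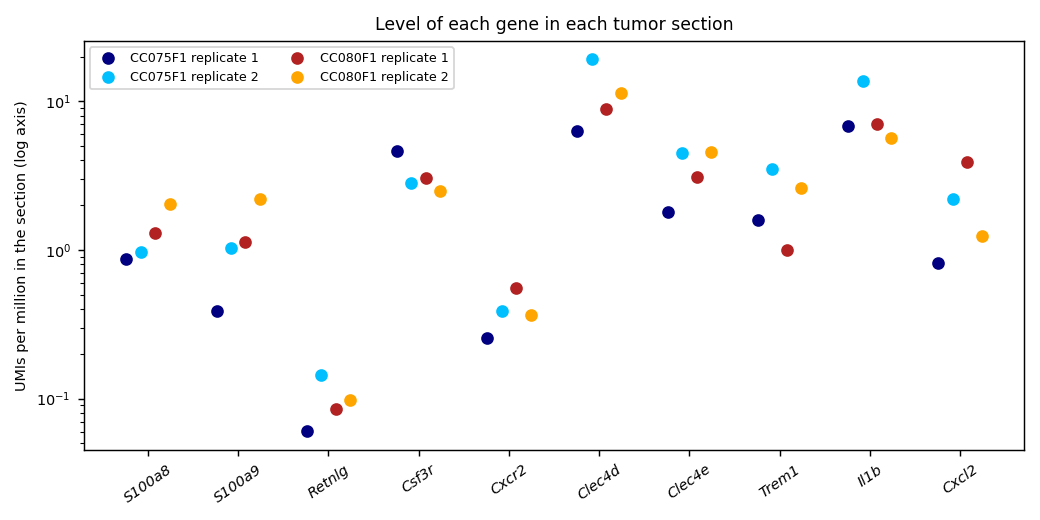
Level of each gene in each section, in CPM on a log axis, with 1 point per section and no error bar. S100a8 ran from 0.872 to 2.04 and Clec4d from 6.28 to 19.2, and the CC075F1 sections lay on both sides of the CC080F1 sections for Clec4d.

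The first comparison asked whether the 2 strains differed in these genes. None of the 10 genes passed edgeR's quasi-likelihood test with Benjamini-Hochberg adjustment (2 sections per strain), where 0.0578% of 15572 genes were called higher in CC075F1 and 0.0321% lower. DESeq2 and limma also called 0 of the 10, and 2 had an unadjusted p under 0.05 by edgeR, against 846 of the 15572 genes. On the log2 scale, CC075F1 over CC080F1, the estimate for Il1b was 1.13 (SE 0.46, edgeR adjusted p = 0.83) and for Csf3r 0.70 (SE 0.29, edgeR adjusted p = 0.83), neither past the threshold. S100a8 had -0.51 (SE 0.45) and S100a9 -0.79 (SE 0.67). The median over the 10 genes was 0.38, against -0.02 over all genes tested. Without the filter on low counts Il1b alone of the 10 was called (edgeR adjusted p = 0.00266). In that fit 345 of 22507 genes were called higher and 135 lower. Less RNA per cell and fewer cells cannot be told apart in such sums.

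The share of spots with S100a8 was 2.25% (95% exact binomial interval 1.73 to 2.88), 3.45% (2.85 to 4.13), 3.80% (3.12 to 4.58) and 5.42% (4.66 to 6.26). Both CC080F1 sections were above both CC075F1 sections, with a two-sided exact permutation p of 0.333, the smallest that 2 against 2 sections allow. The share of spots with Il1b was 16.2% (14.9 to 17.7), 37.8% (36.2 to 39.5), 14.5% (13.2 to 15.9) and 15.5% (14.3 to 16.8), also without overlap and with an exact permutation p of 0.333. The intervals cover counting error only. Thinned to 10000 UMIs per spot, the S100a8 shares were 0.824%, 1.23%, 1.17% and 2.09% and the strains overlapped. The Il1b shares were 7.06%, 14.6%, 6.14% and 5.69% and did not. Thinned to 5000 UMIs per spot, both readings turned. The S100a8 shares were 0.490%, 0.646%, 0.758% and 0.896% without overlap, and the Il1b shares 3.24%, 7.20%, 3.39% and 2.82% with overlap. Without CC075F1 replicate 2 the ratio of Il1b shares, CC075F1 over CC080F1, went from 1.80 to 1.08.

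The second comparison set hypoxic spots against the other spots of the same section. Hypoxic spots were the 25% with the highest summed CPM of 10 hypoxia genes (Car9, Bnip3, Ndrg1, Egln3, Ankrd37, Pgk1, Ldha, Slc2a1, P4ha1 and Pdk1), none of them among the 10 genes followed. Clec4d, Clec4e and Cxcl2 were higher in hypoxic spots, and no gene of the neutrophil set was called. Cxcl2 stood at 1.89, 4.58, 5.09 and 2.89 CPM in hypoxic spots and at 0.431, 1.08, 3.51 and 0.720 CPM elsewhere. Every section was higher in its hypoxic spots, and CC080F1 replicate 1 the least, at 1.45-fold against 4.02-fold to 4.38-fold in the others. Over the 4 sections Cxcl2 rose by 1.79 on the log2 scale (SE 0.29, edgeR adjusted p = 0.00191). Clec4e stood at 3.23, 5.85, 4.27 and 7.74 CPM in hypoxic spots and at 1.26, 3.85, 2.66 and 3.58 CPM elsewhere, a rise of 1.11 in log2 (SE 0.13, edgeR adjusted p = 0.000374). Clec4d was 2.44-fold, 1.31-fold, 1.52-fold and 1.71-fold higher, a rise of 0.93 in log2 (SE 0.10, edgeR adjusted p = 0.000268).

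The background of this comparison was wide: 16.6% of 15088 genes were called higher in hypoxic spots and 15.9% lower, against 3 and 0 of the 10 genes. The 3 calls passed in all 12 alternatives and with each section left out, with adjusted p values from 2.17e-05 to 0.0231 over the left-out sections. Of the rest, Trem1 was at 0.40 in log2 (edgeR adjusted p = 0.0865) and Csf3r at -0.25 (adjusted p = 0.141). S100a8 was at 0.387-fold and 0.436-fold in the CC075F1 sections and at 1.17-fold and 1.25-fold in the CC080F1 sections. Among spots more than 3 steps from a position off the tissue, S100a8 was at 0.630-fold, 0.777-fold, 1.16-fold and 1.27-fold. Over all spots Il1b was at 0.740-fold and 0.496-fold in CC075F1 against 1.11-fold and 1.07-fold in CC080F1. The strain difference of the hypoxia effect was not called for S100a8 (log2 -1.42, SE 0.36, edgeR adjusted p = 0.432), S100a9 (-1.76, SE 0.45, adjusted p = 0.448) or Il1b (-0.80, SE 0.17, adjusted p = 0.211). In that test 0.0% of 15088 genes were called with a larger effect in CC075F1 and 0.0663% with a smaller one, and 0 of the 10 genes in either direction. Of the 10 genes 5 had an unadjusted p under 0.05 by edgeR, against 646 of the 15088. DESeq2 also called 0 of the 10. Leaving out each section in turn left 1 section in a strain, so only effect sizes are given. The log2 difference then ran from -0.95 to -0.62 for Il1b, from -2.47 to -1.28 for S100a9 and from 0.15 to 1.73 for Cxcl2.

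Marker levels of other cells moved with the hypoxic spots. The summed level of 8 macrophage genes was 0.952-fold, 0.623-fold, 0.898-fold and 0.745-fold in hypoxic spots, that of 4 monocyte genes 0.529-fold, 0.304-fold, 0.645-fold and 0.543-fold, and that of Spp1 and Arg1, genes of a tumor macrophage state, 0.999-fold, 1.83-fold, 1.57-fold and 1.76-fold. None of these genes was at 0 in a section. Of 13 marker lists of other cells 9 were lower in hypoxic spots of every section, among them endothelial genes at 0.310-fold to 0.459-fold, and 0 were higher in every section. These are plain CPM ratios. With library size scaling alone the median log2 fold change over 15088 genes was -0.20, so ratios a little under 1 were near the typical gene. The part of these other cells in the result was not tested.

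**Figure D2:**
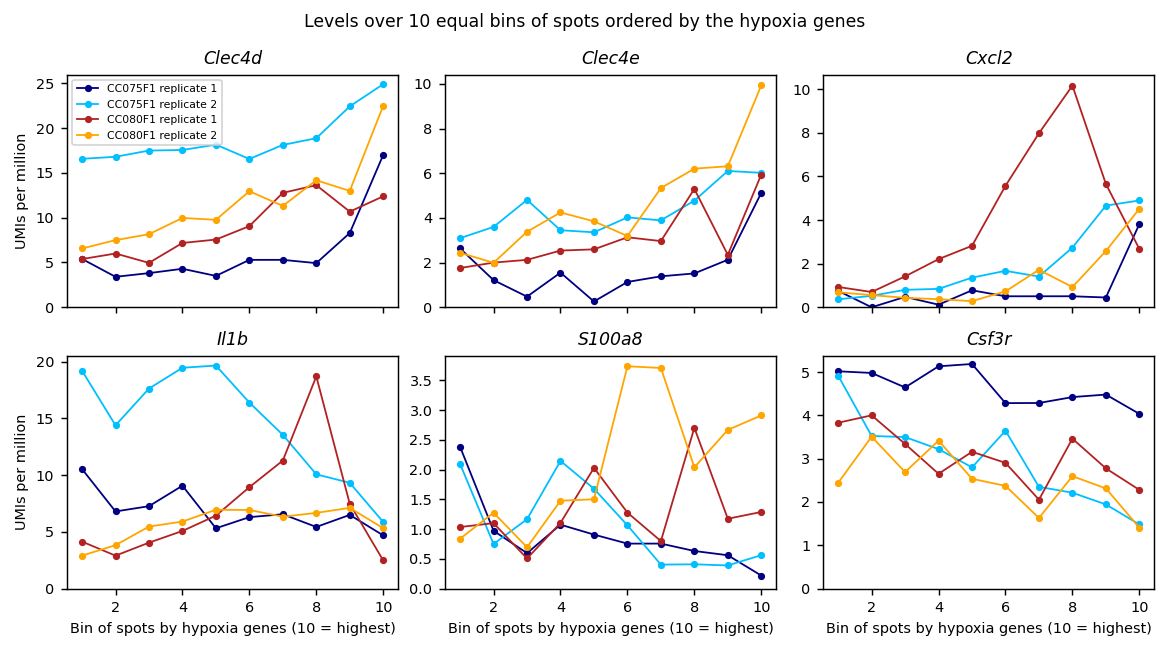
CPM (y axis) of 6 genes in 10 equal bins of spots ordered by the 10 hypoxia genes (x axis, bin 10 is the most hypoxic), with 1 line per section. Cxcl2 was highest in bin 10 in 3 sections and in bin 8 of CC080F1 replicate 1, and Csf3r was lower in bin 10 than in bin 1 of each section.

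Over 10 bins of spots ordered by the hypoxia genes, Cxcl2 in bin 10 was 5.07-fold, 13.4-fold, 2.87-fold and 6.58-fold its level in bin 1. Clec4e was 1.95-fold, 1.94-fold, 3.38-fold and 4.07-fold higher. Csf3r in bin 10 was at 0.804-fold, 0.301-fold, 0.595-fold and 0.576-fold its level in bin 1, a description only, since its hypoxia contrast was not called and its highest bin in CC075F1 replicate 1 was bin 5.

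The third comparison set the edge against the interior. Edge spots lay within 3 steps of the spot grid from a position off the tissue, and holes and clefts counted as edge. S100a8, S100a9 and Il1b were higher at the edge. S100a8 stood at 2.59, 3.83, 2.24 and 5.14 CPM in edge spots and at 0.602, 0.549, 0.904 and 1.46 CPM in the interior. S100a9 stood at 1.52, 4.56, 1.84 and 5.87 CPM at the edge and at 0.210, 0.510, 0.843 and 1.53 CPM inside. Every section was higher at its edge, by 2.48-fold to 6.97-fold for S100a8 and by 2.18-fold to 8.94-fold for S100a9. In log2 the rise was 1.93 for S100a8 (SE 0.23, edgeR adjusted p = 0.0167) and 2.15 for S100a9 (SE 0.31, edgeR adjusted p = 0.0285). Il1b stood at 12.2, 31.3, 15.3 and 8.50 CPM at the edge and at 5.98, 11.2, 3.63 and 5.13 CPM inside (log2 1.27, SE 0.19, edgeR adjusted p = 0.0288). Of the few Retnlg UMIs, 3 of 5, 17 of 21, 6 of 8 and 9 of 11 lay in edge spots. Retnlg passed the filter on low counts through its edge sums alone, so it is given as a description and is not counted among the genes that rose.

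Edge calls were rarer over all genes, at 1.0% of 15089 higher and 0.0994% lower, against 3 and 0 of the 9 genes other than Retnlg. All 9 log2 fold changes were above 0, with a median of 0.79 against -0.02 over all genes tested. The receptors of the neutrophil set were not called, with Cxcr2 at 0.54 (edgeR adjusted p = 0.453) and Csf3r at 0.25 (adjusted p = 0.519). Csf3r was at 1.53-fold and 2.01-fold in the CC075F1 sections and at 0.884-fold and 0.847-fold in the CC080F1 sections, and this strain difference was not called (log2 0.86, SE 0.25, edgeR adjusted p = 0.325). The 3 edge calls depended on which sections were used. Without CC075F1 replicate 1 the adjusted p was 0.0965 for S100a8, 0.134 for S100a9 and 0.118 for Il1b, and without CC080F1 replicate 2 it was 0.141, 0.189 and 0.0978. Without CC075F1 replicate 2 S100a8 and S100a9 passed and Il1b did not (adjusted p = 0.0515), and without CC080F1 replicate 1 all 3 passed. The log2 fold changes of S100a8 stayed between 1.71 and 2.15 over the left-out sections. With an edge of 2 steps S100a8 and Il1b were called, and with 5 steps S100a8 alone.

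Edge spots were shallower in each section, with a median of 18032 UMIs against 33592, 25171 against 46146, 30120 against 34844 and 26854 against 37003. The share of mitochondrial UMIs was 3.39% against 1.71%, 1.82% against 1.29%, 2.14% against 1.98% and 2.55% against 1.70%. The summed level of 5 erythrocyte genes at the edge was 3.03-fold, 0.492-fold, 2.80-fold and 13.1-fold that of the interior, that of 4 monocyte genes 1.45-fold, 2.04-fold, 1.05-fold and 1.49-fold. Of 13 marker lists 5 were higher at the edge of every section: the monocyte genes, 5 genes of eosinophils and mast cells (2.38-fold to 4.87-fold, with 1 to 2 of the 5 at 0 in each section), 4 adipocyte genes (1.09-fold to 3.05-fold), 4 endothelial genes (1.14-fold to 2.07-fold) and Spp1 and Arg1 (1.09-fold to 1.82-fold). The 5 skeletal muscle genes were at 67.3-fold in CC075F1 replicate 2 and at 0.862-fold to 1.01-fold in the others. The part of depth, blood and these cells in the edge result was not tested. Without the 25 spots rich in muscle, fat or skin genes, all of them at the edge of CC075F1 replicate 2, the log2 fold change of S100a8 was 1.93 and that of S100a9 2.11. Without the 12 spots of 5 or more UMIs of S100a8, S100a9 or Retnlg, an alternative added after seeing the data, they were 1.58 and 1.70, both still called, and Il1b was at 1.26, also called. Retnlg is left out here, because it passed the filter through its edge sums alone.

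**Figure D3:**
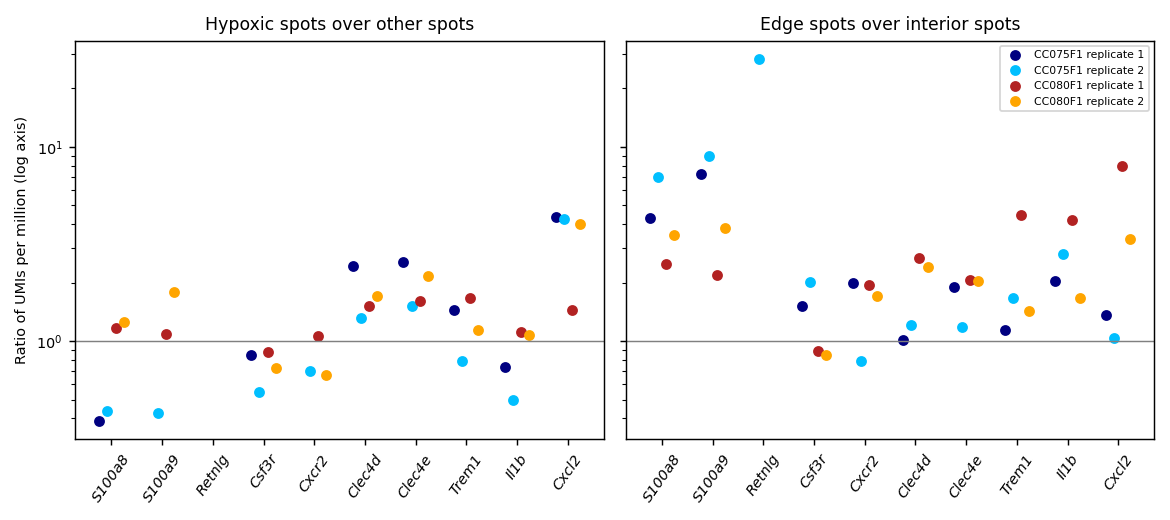
Ratio of CPM in hypoxic over other spots (left) and in edge over interior spots (right), on a log axis, with 1 point per section and the line at 1. Ratios with few UMIs on a side are left out. Cxcl2 and Clec4e lay above 1 in all 4 sections on the left, and S100a8, S100a9 and Il1b in all 4 on the right.

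The edge effect of Clec4d, the lectin receptor, differed between strains. It was 1.01-fold and 1.21-fold in the CC075F1 sections and 2.68-fold and 2.41-fold in the CC080F1 sections, without overlap. The difference in log2 fold change, CC075F1 minus CC080F1, was -1.34 (SE 0.14, edgeR adjusted p = 0.0100), where 0.0862% of 15089 genes were called with a larger effect in CC075F1 and 0.0199% with a smaller one. The call was lost when hypoxic spots were left out (-1.08, edgeR adjusted p = 0.106) and with library size scaling (-1.17, adjusted p = 0.0531). Leaving out each section in turn left 1 section in a strain, so only effect sizes are given. The difference then ran from -1.40 to -1.29. Cxcl2 was 1.36-fold, 1.04-fold, 7.98-fold and 3.37-fold at the edge, with a difference of -2.43 (SE 0.45, edgeR adjusted p = 0.12). Of the hypoxic spots 9.44%, 8.79%, 26.5% and 22.3% lay at the edge, and of the other spots 24.8%, 24.1%, 33.3% and 19.8%, a difference that was not tested.

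Where the UMIs lay in space is shown by the spot maps. Edge spots held 40.3%, 51.0%, 50.4% and 40.0% of the S100a8 UMIs, with 13.6%, 13.0%, 29.0% and 15.9% of all UMIs. In CC080F1 replicate 1 Cxcl2 lay along a deep cleft of the section, and 76.6% of its UMIs were in edge spots. The disc of 3 steps that held the most Cxcl2 and the one that held the most Il1b had the same centre, 1 step from the edge. Its 27 spots held 27.0% of the Cxcl2 UMIs and 16.3% of the Il1b UMIs of the section, with 0.923% of all its UMIs. In CC080F1 replicate 2 the densest disc of S100a9 held 28.0% of its UMIs in 35 spots, 2 steps from the edge, and that of S100a8 was 1 step away. The densest S100a8 and S100a9 discs were 2 and 3 steps apart in CC075F1 replicate 2 and CC080F1 replicate 1, but 43 steps apart in CC075F1 replicate 1. These discs were chosen for their counts, so their levels are a description. Without the 27 spots, left out after seeing the data, Clec4d kept its strain difference in the edge effect (-1.33, edgeR adjusted p = 0.00726).

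**Figure D4:**
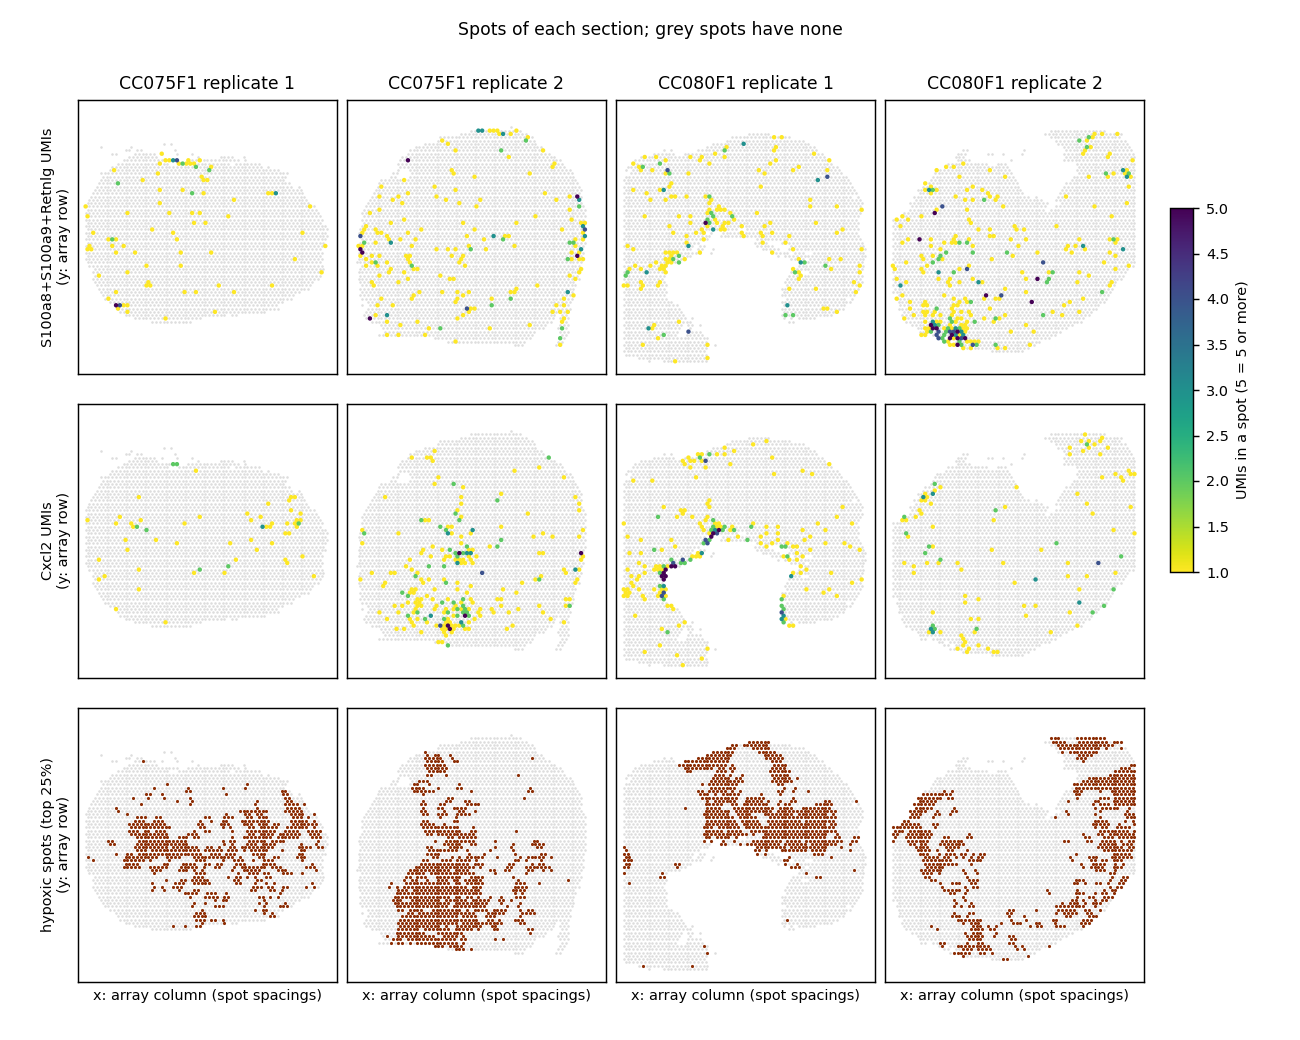
Spots of the 4 sections at their array positions, coloured by UMIs of S100a8, S100a9 and Retnlg together (top), of Cxcl2 (middle) and by membership of the hypoxic 25% (bottom), with grey for spots without. Edge spots held 40.0% to 51.0% of the S100a8 UMIs, and Cxcl2 in CC080F1 replicate 1 lines the cleft, where 27 spots held 27.0% of its UMIs.

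Co-occurrence within spots was measured as an odds ratio over 10 strata of spot depth, as a description of spots that share sections and depth. S100a8 and S100a9, the calprotectin pair, were found together with odds ratios from 6.36 to 18.5 over the 4 sections (median 8.38, 7 to 49 shared spots) and Pearson r from 0.15 to 0.29. Within the inflammatory set all 10 pairs had odds ratios above 1 in all 4 sections, led by Clec4e with Cxcl2 (median 2.99). Within the neutrophil set 5 of 10 pairs did so. Across the sets 8 of 25 pairs were above 1 in all 4, among them S100a8 with Cxcl2 (median 3.17) and S100a8 with Il1b (2.38). Pairs of other genes were not measured, so these counts have no background and are not read as particular to the sets. The highest median among pairs without Retnlg was that of S100a8 and S100a9. Csf3r was nearer 1, at 0.909 with Clec4d and 1.35 with S100a8. Spots with 5 or more of the 10 genes numbered 6, 41, 13 and 18.

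**Figure D5:**
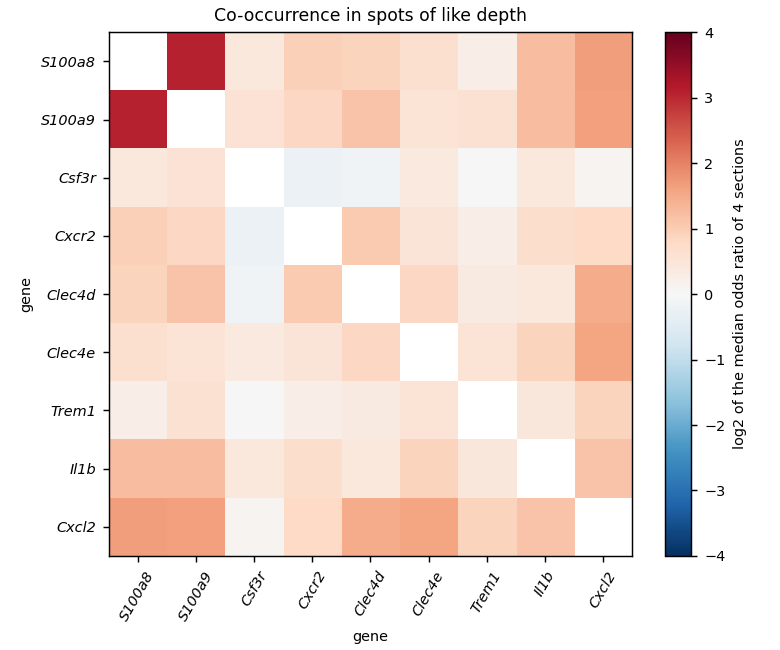
Median over 4 sections of the odds ratio of finding 2 genes in the same spot (log2 colour scale), for 9 genes, with Retnlg left out for its few UMIs. The S100a8 and S100a9 square is the darkest, at an odds ratio of 8.38, and the row of Csf3r is palest.

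Neighbouring spots were alike for some genes only. Moran's I, the correlation of a spot with its 6 neighbours, ran from 0.12 to 0.15 for Clec4d, from 0.08 to 0.24 for Cxcl2 and from 0.07 to 0.20 for S100a9. Medians were 0.03 to 0.06 over 11150 genes with a UMI in at least 5% of spots of every section, which left out Cxcl2 and S100a9. By section, 3.15% to 13.2% of those genes were higher than Clec4d, 1.55% to 38.9% than Cxcl2 and 4.58% to 25.2% than S100a9. Moran's I was -0.0016 to 0.022 for Csf3r. The genes most like the inflammatory set across spots were Mmp12, a macrophage protease (lowest r of the 4 sections 0.16), then Lgals3, Arg1, Il1rn, Ier3, Hmox1, Ftl1, Srgn, Cebpb and Aldoa (0.11 to 0.14). For the neutrophil set the lowest r was 0.06 for Il1b and Il1rn, followed by Lilrb4a, Junb, Stat3, Ctss, Clec2d, Ehd1, Srgn and Slc15a3 at 0.04 to 0.05, and such weak values are no finding.

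A wider list of neutrophil and inflammatory genes, 52 of 53 measured, gave the setting. Between strains edgeR called 0 of 41 tested, with 14 at an unadjusted p under 0.05, against 846 of all 15572 genes. For the wider list limma called 0, and DESeq2 called 3 higher and 1 lower, against 137 and 57 of all 15572 genes. In hypoxic spots 8 of 41 were called higher and 8 lower, or 19.5% each way, against 16.6% and 15.9% of all genes (DESeq2 8 and 4 of 38, against 2063 and 1719 of 15088 genes). That share was near the background, so the genes named next are a description of the list. Ccrl2, an atypical chemokine receptor, was 3.32-fold, 1.94-fold, 1.89-fold and 2.46-fold (log2 1.42, SE 0.14, edgeR adjusted p = 0.000141), followed by Ptgs2, the inducible cyclooxygenase (1.29), and Il1rn, the interleukin 1 receptor antagonist (0.84). Cxcl5 was lower (-1.51). Il6 passed the filter through the other spots alone, with 0 to 5 UMIs per section in hypoxic spots. At the edge 8 of 40 were called higher and 0 lower, or 20% and 0%, against 1.0% and 0.0994% of all genes. DESeq2 called 14 and 1, against 467 and 163 of 15089 genes. Of the 40, 7 passed the filter through their edge sums alone, so these counts are a description. Of the 8 that edgeR called, Cxcl3 and Lcn2 passed the filter through their edge sums alone and are described with no test. Cxcl3, a further CXCR2 ligand, had 40 of 53, 30 of 45, 119 of 131 and 10 of 17 UMIs in edge spots, and Lcn2, secreted by neutrophils and epithelia, 2 of 4, 18 of 29, 10 of 12 and 23 of 37. Slpi, a secreted protease inhibitor, was the largest of the others (log2 3.06, SE 0.49, edgeR adjusted p = 0.0363), with 534 of its 681 UMIs in CC075F1 replicate 2 in edge spots.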

How the data were processed

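Spatial RNA (Visium) was measured in 4 fresh frozen sections of 10 µm. The deposited counts are UMIs per gene and spot, which the authors made with Space Ranger 1.3.1 on the 10x mm10 reference with GENCODE annotation, and their later Seurat 5.0.1 values were not used. Spots under tissue were kept as deposited, including 1 with 0 UMIs, and no doublets were removed because spots hold several cells. Counts were summed per section, or per section and spot class. Sums were tested over all genes with edgeR 4.0.16 (TMM, filterByExpr, quasi-likelihood test, Benjamini-Hochberg threshold 0.05), with the section as a term where classes within sections were compared. All 10 genes passed the filter in each fit, Retnlg through its edge sums alone at the edge. Shares were compared by exact permutation tests. The fits were tested on simulated data. The labels name no batch or date, so none was fitted. The genes, lists and tests were chosen with earlier results of these data known. Named genes were all 10, the 10 genes most like each set across spots (lowest Pearson r of log2(CPM + 1) over 4 sections, among genes in at least 5% of spots), and the 3 largest called changes in each direction from the wider list. Alternatives were DESeq2 1.42.0, limma 3.58.1, other scalings, filters, spot classes and each section left out. Clec7a was not analysed here. The value of 1 gene of the wider list is not reported here.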

Additional observations from a re-analysis of the deposited data

Results flagged for a closer look

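Clec4d had an edge effect that differed between strains by -1.34 on the log2 scale (SE 0.14, edgeR adjusted p = 0.0100), from 1.01-fold and 1.21-fold in CC075F1 to 2.68-fold and 2.41-fold in CC080F1. Clec4n (Dectin-2), a C-type lectin receptor of the wider list, had a hypoxia effect that differed by -1.01 (SE 0.10, edgeR adjusted p = 0.0137), with 0.421-fold and 0.390-fold in the CC075F1 sections and 0.881-fold and 0.854-fold in the CC080F1 sections. Leaving out each section in turn left 1 section in a strain, so only effect sizes are given. The Clec4n difference then ran from -1.10 to -0.97. With all sections it missed the threshold in the interior alone (-0.89, edgeR adjusted p = 0.0975), with 7 hypoxia genes (-0.89, 0.0812), with library size scaling (-1.10, 0.0611) and with the top 50% of spots (-0.89, 0.0513). Both were singled out because the test of the difference itself passed.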

How the results depend on the processing

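The counts of called genes were those of edgeR, Retnlg included. At the edge Retnlg passed the filter through its edge sums alone, so edge counts that hold it are a description. With no filter on low counts 1 gene was called higher between strains, against 345 of all 22507 genes. In the same setting 2 were called with a smaller hypoxia effect in CC075F1, against 131 of all genes. For a smaller edge effect there were 2, against 187 of all genes. In hypoxic spots 1 gene was called lower with library size scaling (against 5976 of 15088 genes), with the top 10% (2538 of 14897) and with 7 hypoxia genes (2416 of 15112). At the edge 2 genes were called higher with 2 steps, against 217 of 15190 genes, and 1 with 5 steps, against 69 of 15006. For a smaller edge effect in CC075F1 there were 0 with library size scaling, against 1 of 15089 genes. Without hypoxic spots there were 0, against 1 of 14714, and with DESeq2 2, against 40 of 15089. Leaving out 1 section gave 3 to 4 genes higher in hypoxic spots, against 1389 to 2279 of all genes, and 0 to 4 at the edge, against 4 to 783. For the strain differences such fits left 1 section in a strain, so their counts are not given. Where 1 section of a strain was left, it was assumed to vary like the other strain. Mean odds ratios at 2 UMIs were 108 for S100a8 and S100a9, 9.57 for Clec4d and Clec4e, 73.2 for Clec4e and Cxcl2 and 17.4 for Il1b and Cxcl2, all above those at 1 UMI. The largest rest on few spots. Spots with 2 or more UMIs made up 0.148% to 0.882% of a section for S100a8 and 0.148% to 1.39% for S100a9. For Clec4e they made up 0.480% to 2.81% and for Cxcl2 0.295% to 1.97%.

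Among log2 fold changes that turned sign, none was past the threshold in the reported fit. Between strains Clec4e gave -0.28 with library size scaling, -0.052 with limma and -0.077 with the replicate block. In hypoxic spots S100a9 gave -0.18 with library size scaling and -0.13 with DESeq2, S100a8 0.0085 in the top 10%, 0.086 in the top 50% and 0.16 in the interior, and Cxcr2 0.11 and Il1b 0.18 in the top 50%. For the strain difference of the hypoxia effect Clec4e gave -0.014 with library size scaling; in the top 10% Cxcr2 gave 0.60, Csf3r 0.13, Clec4e -0.14 and Trem1 0.46, and in the top 50% Csf3r 0.043, Cxcl2 -0.023, Clec4d -0.24 and Clec4e -0.21. Retnlg gave -0.52 for the strain difference of the edge effect without spots of 5 or more S100a8, S100a9 or Retnlg UMIs, an alternative chosen after seeing the data. With 1 section left out, the values between strains were Cxcr2 -0.78 to 0.36, Cxcl2 -1.55 to 0.68, Clec4d -0.64 to 1.49, Clec4e -1.05 to 0.80, Trem1 -0.16 to 1.86; in hypoxic spots S100a8 -0.48 to 0.15, Il1b -0.27 to 0.099, S100a9 -0.53 to 0.52; for the strain difference of the hypoxia effect Clec4d -0.13 to 0.53, Clec4e -0.18 to 0.38, Csf3r -0.37 to 0.017, Trem1 -0.57 to 0.091; and for that of the edge effect Cxcr2 -1.46 to 0.051, Retnlg -0.65 to 1.33, Il1b -0.92 to 0.38. The cause was not tested.

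Replicate numbers were shared between strains but tie no sections together in the labels; across 15572 genes the differences between replicates correlated at 0.39 between strains. With the replicate block 0 of the 10 genes were called between strains, and 193 genes were higher and 94 lower over all.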
